A study of Mus musculus with 44 samples.

Results

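The unfolded protein response and the integrated stress response were followed in mouse liver through 10 genes, Atf4, Ddit3, Atf3, Trib3, Chac1, Asns, Xbp1, Hspa5, Dnajb9 and Herpud1, taken as a fixed list from a table of 35249 genes. All 10 were found in the table and all 10 passed the filter on low counts, which kept 14862 genes. The samples were livers of wild type mice (WT), of mice without Ripk3 (Ripk3KO, Ripk3-/-) and of mice without Mlkl (MlklKO, Mlkl-/-), which lack the kinase and the membrane effector of necroptosis, a lytic form of programmed cell death. From the age of 2 months the mice received normal chow (the control diet) or, for 6 months one of 2 choline deficient diets, low in fat (CD-LFD) or high in fat (CD-HFD). The 44 libraries fell into 9 groups. There were 6 WT mice on each diet, 6 Ripk3KO mice on control diet, 3 on CD-LFD and 4 on CD-HFD, and 6 MlklKO mice on control diet, 4 on CD-LFD and 3 on CD-HFD. Sex, strain and time of dissection are not among the labels used here, and no label names a cell type to which a deletion was restricted. Nothing in the labels says more of how the replicates were obtained than that they are separate samples, so p-values measure the spread between these samples. The design asks how blocking necroptosis changes gene expression in livers on these diets, in a study of inflammation and liver cancer.

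Proteins that are secreted by the hepatocyte fold in the endoplasmic reticulum (ER), and a load of unfolded protein there is sensed by the kinase PERK, the nuclease IRE1 and the membrane-bound factor ATF6. PERK, and other kinases that answer to lack of amino acids, haem or viral RNA, phosphorylate the initiation factor eIF2, which slows general translation and favours that of the transcription factor ATF4: this common branch is the integrated stress response. IRE1 splices Xbp1 mRNA, and XBP1 and cleaved ATF6 raise ER chaperones such as Hspa5 (BiP) and components of ER-associated degradation. ATF4 raises other transcription factors (Ddit3, which encodes CHOP, and Atf3), the pseudokinase Trib3, the glutathione-degrading enzyme Chac1 and asparagine synthetase (Asns). The activity of ATF4 and XBP1 depends on translation and splicing, which a count of reads per gene does not measure.

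Both branches are marked by short motifs in the promoters of their targets, and 4 promoters are shown because they carry such motifs and belong to members from either branch. They are the 250 bases before the annotated start, read along the gene, from RefSeq on GRCm38.p6, with motif matches in capitals. The authors' counts were made on GRCm39 per the submitters' processing notes, so these coordinates belong to the sequences only.

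Hspa5 (chr2:34771840-34772089, plus strand): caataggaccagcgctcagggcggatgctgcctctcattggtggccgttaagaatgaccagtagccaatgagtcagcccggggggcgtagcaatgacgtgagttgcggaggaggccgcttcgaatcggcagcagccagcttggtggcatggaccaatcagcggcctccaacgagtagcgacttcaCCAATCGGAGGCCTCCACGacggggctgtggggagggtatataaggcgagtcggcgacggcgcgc
Herpud1 (chr8:94386179-94386428, plus strand): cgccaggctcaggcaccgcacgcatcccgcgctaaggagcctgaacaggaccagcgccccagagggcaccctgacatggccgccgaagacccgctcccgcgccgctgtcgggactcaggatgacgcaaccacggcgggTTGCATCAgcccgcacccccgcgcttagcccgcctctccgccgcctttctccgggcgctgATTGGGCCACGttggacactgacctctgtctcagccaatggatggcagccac
Atf3 (chr1:191183334-191183583, minus strand): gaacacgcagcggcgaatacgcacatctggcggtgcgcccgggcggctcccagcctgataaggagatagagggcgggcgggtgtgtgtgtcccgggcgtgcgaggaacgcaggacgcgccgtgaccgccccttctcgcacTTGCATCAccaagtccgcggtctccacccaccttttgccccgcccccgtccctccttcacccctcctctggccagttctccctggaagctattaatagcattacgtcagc
Chac1 (chr2:119350992-119351241, plus strand): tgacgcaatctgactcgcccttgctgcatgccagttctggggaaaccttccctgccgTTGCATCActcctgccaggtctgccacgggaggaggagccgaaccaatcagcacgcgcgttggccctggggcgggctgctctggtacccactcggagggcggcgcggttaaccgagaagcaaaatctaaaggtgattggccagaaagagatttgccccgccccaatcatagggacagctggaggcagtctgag

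All 10 members had an entry in the promoter table. Motifs were searched on both strands in windows of 300 bases, 250 before and 50 after the start, of 32851 promoters. The ER stress element, ERSE (CCAAT and CCACG with 9 bases between them), was found in 1 member, Hspa5, beginning 65 bases before the start, and in 0.119% of all promoters. The second form, ERSE-II (ATTGG and CCACG with 1 base between them), was found in Herpud1 alone among the members, 52 bases before the start, and in 0.0365% of promoters. The C/EBP-ATF response element, CARE (TGATGNAA), was found in 5 members and in 3.97% of promoters: in Atf3 110, Chac1 193, Herpud1 112 and Asns 23 bases before the start, and in Trib3 14 bases after it. The XBP1 element UPRE (TGACGTGG, in 0.676% of promoters) and the cyclic AMP response element CRE (TGACGTCA, 1.79%) were found in none of the 10. A match is a description of letters and does not show binding.

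Sequencing depth lay between 2476268 and 12471844 counts for 43 libraries, and replicate 3 of WT CD-LFD had 88204703. Levels are CPM, the share of a library's counts after TMM scaling, so that a level can be compared between libraries for 1 gene but not between genes, since length is not accounted for. A count of 3 in the smallest library of a group corresponds to between 0.406 and 1.37 CPM, and such limits cover counting error only. Ripk3 was at most 0.206 CPM in Ripk3KO CD-HFD livers and had a median of 0.126 in Ripk3KO control livers. Mlkl was at 1.24 to 2.61 CPM in MlklKO control livers, which overlapped WT control livers (2.02 to 5.50), so its reads check the label less sharply. The 2 deleted genes went against the labels in 2 libraries. Ripk3 was at 1.01 CPM in Ripk3KO control replicate 5, within the range of WT control livers (0.439 to 4.78), and Mlkl was at 14.4 CPM in MlklKO CD-HFD replicate 1, against 17.2 to 22.6 in WT CD-HFD livers. Both are called here by their labels, and comparisons were repeated without them. Hepatocyte markers summed to between 59091 and 161447 CPM in WT control and CD-HFD livers. The share of RNA that came from each cell type was not estimated. With CD-HFD the sum of hepatocyte markers in WT went from 91408 to 161447 down to 59091 to 95074, and all 10 hepatocyte markers were called lower.

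Clock genes set another limit. The log2 ratio of Arntl to Dbp, genes that peak at opposite times of day, split the libraries at a gap of 1.01 into 33 below and 11 above. Above it lay 4 of 6 WT control livers (replicates 1, 3, 5 and 6), 6 of 6 WT CD-LFD livers and 1 of 6 WT CD-HFD livers (replicate 3). Every knockout library lay below. Genotype and clock phase therefore cannot be told apart on CD-LFD, and on control diet only 2 WT livers lie on the same side as the knockouts. The ratios of these 2 were -5.79 and -7.88, against -7.40 to -5.68 in Ripk3KO control and -4.96 to -3.67 in MlklKO control livers. In MlklKO the ratio also differed by diet. It was -7.05 to -5.85 on CD-LFD and -6.10 to -5.19 on CD-HFD, neither overlapping control diet. Comparisons were also fitted with the ratio as a covariate and within the 33 libraries below the gap.

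**Figure D1:**
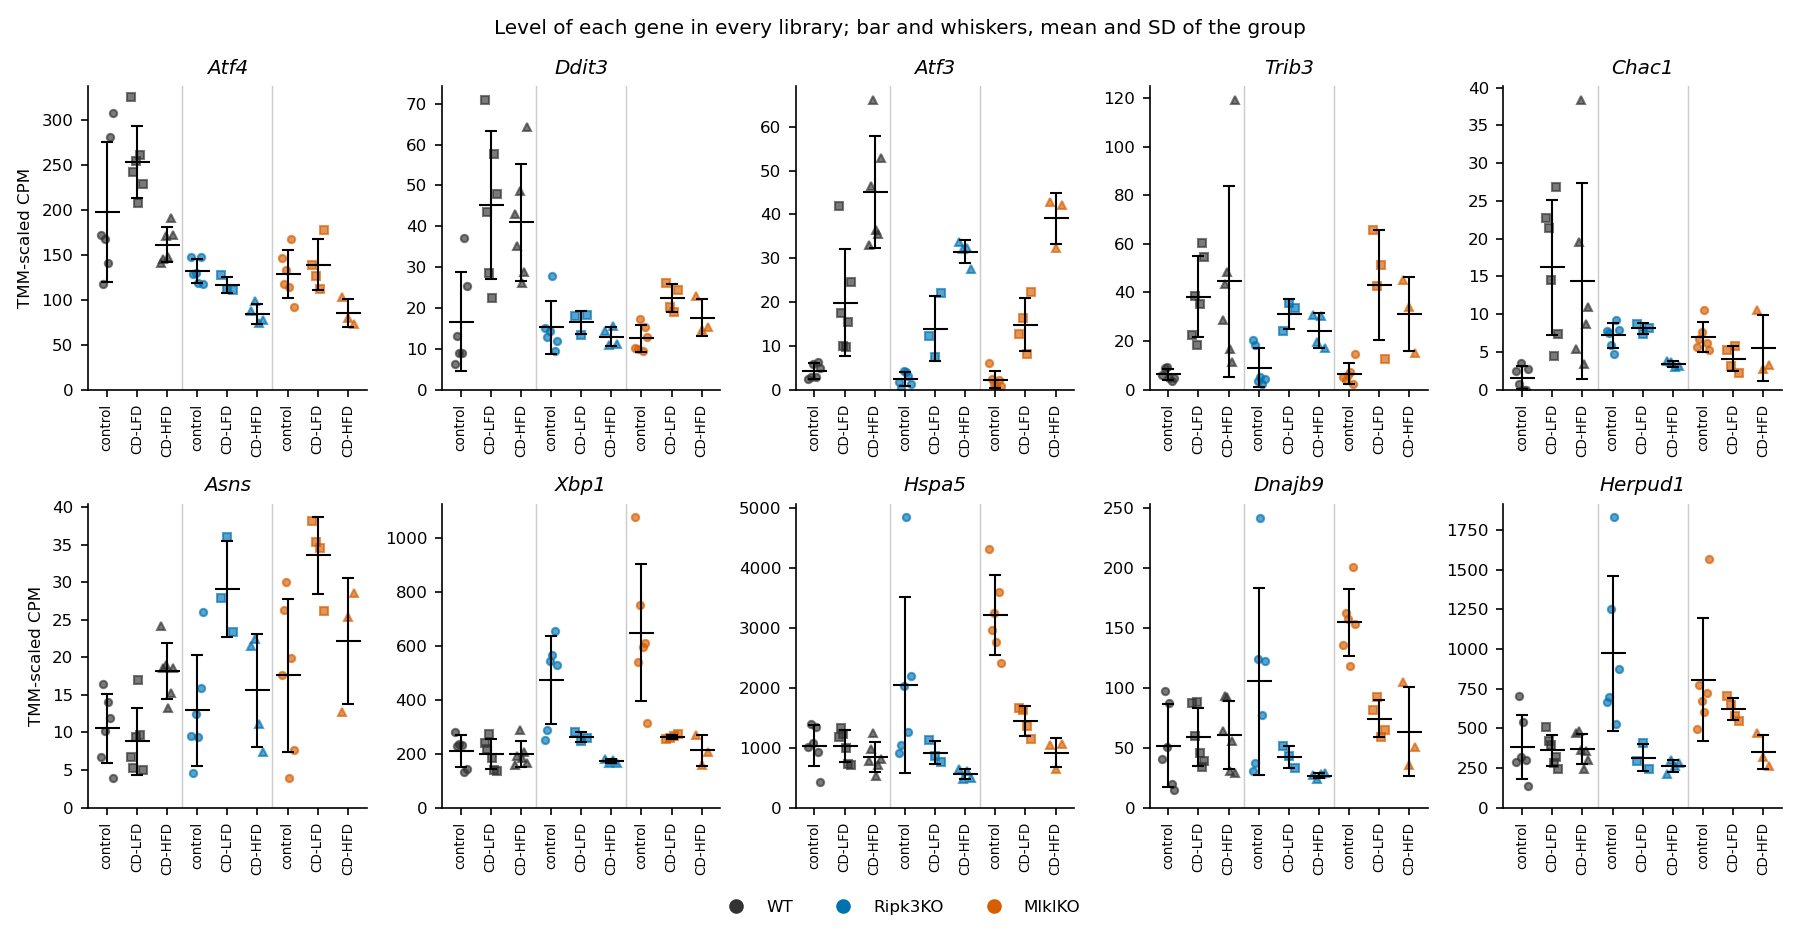
Levels of the 10 genes in all 44 livers (y axis, TMM-scaled CPM from 0; x axis, diet within genotype; circles, control; squares, CD-LFD; triangles, CD-HFD; black bars, mean and SD). Atf3 was between 33.1 and 66.0 CPM in WT CD-HFD livers and at most 6.39 in WT control livers, while Hspa5 had its highest group mean in MlklKO control livers (3219 CPM) and its highest single value in Ripk3KO control replicate 4 (4848 CPM).

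In WT livers CD-HFD raised 4 of the 10 genes, all of them on the ATF4 side, while Xbp1, Hspa5, Dnajb9 and Herpud1 were not called. Atf3, a transcription factor induced by many kinds of injury, was at 2.48, 3.91 and 6.39 CPM (lowest, median, highest) on control diet and at 33.1, 41.5 and 66.0 on CD-HFD. The 2 groups did not overlap, and the fitted log2 change was 3.45 ± 0.385 (SE; 10.9-fold; edgeR quasi-likelihood test, Benjamini-Hochberg adjusted p = 1.08e-09). Trib3, which binds ATF4 and the kinase AKT, went from 3.65, 5.57 and 9.36 CPM to 11.4, 36.0 and 119, again without overlap (log2 2.78 ± 0.509, adjusted p = 1.71e-05 by edgeR). Its spread on CD-HFD was wide, since replicate 6 stood at 119 CPM and the next liver at 48.5.

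Chac1 was close to the limit of counting in WT control livers, with 18, 3, 21, 0, 0 and 11 counts in replicates 1 to 6, or 0 to 3.58 CPM. On CD-HFD it lay at 3.46, 9.82 and 38.3 CPM (lowest, median, highest), so that only the lowest CD-HFD liver fell within the control range. The log2 change was 2.95 ± 0.515 (edgeR, adjusted p = 8.07e-06). Ddit3, which encodes the pro-apoptotic factor CHOP, went from 6.35, 11.1 and 37.0 CPM to 26.0, 39.0 and 64.3 (log2 1.37 ± 0.306, adjusted p = 0.000282 by edgeR). The overlap came from WT control replicate 5, at 37.0 CPM. Ddit3 overlaps the 3′ end of Mars on the opposite strand, and whether the counting used strand is not given in the sources used here, so some reads may belong to either gene. The same holds for Herpud1 and its antisense neighbour Gm15890. Mars itself fell in the same livers (log2 -0.88 ± 0.107, adjusted p = 8.38e-09 by edgeR).

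The other 6 members did not pass the test in WT livers on CD-HFD. Hspa5, the main Hsp70 chaperone of the ER, had means of 1032 ± 347 CPM (SD, n = 6) on control diet and 842 ± 244 on CD-HFD. Herpud1, a membrane protein of the ER degradation machinery, was at 380 ± 204 and 368 ± 94.6 CPM, and Dnajb9 (ERdj4), a co-chaperone of BiP, at 51.7 ± 34.4 and 60.5 ± 28.2. Xbp1 stood at 209 ± 58.7 and 199 ± 47.5 CPM, a gene level that does not separate spliced from unspliced mRNA. Atf4 stood at 198 ± 78.1 and 161 ± 19.7 CPM, and Asns at 10.5 ± 4.63 and 18.2 ± 3.77. The groups overlapped for all 6. The 4 calls among 10 members compare with 47.7% of all genes called in this comparison, 23.5% higher and 24.1% lower, so the share of members called was near the background.

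CD-LFD raised the same 4 genes in WT livers (27.7% of all genes were called). Atf3 was at 9.69, 16.4 and 42.0 CPM (log2 2.25 ± 0.385, adjusted p = 2.65e-05 by edgeR), and Trib3 at 18.3, 36.9 and 60.5 (2.55 ± 0.508, adjusted p = 0.000208). Chac1 was at 4.51, 17.9 and 26.8 CPM, above every control liver (3.12 ± 0.515, adjusted p = 1.52e-05), and Ddit3 at 22.5, 45.7 and 71.0 (1.51 ± 0.307, adjusted p = 0.000275). These 8 changes on the 2 diets stayed called when any 1 library was left out and in every other alternative that could be run, although for Chac1 on CD-HFD within 1 clock phase only the control livers with 3 and 0 counts remain. Both diet comparisons share the WT control livers. Between the diets directly (21.1% of genes called, 13.7% higher and 7.40% lower), Atf3 was higher on CD-HFD (log2 1.19 ± 0.321, adjusted p = 0.00525 by edgeR) and Atf4 lower, without overlap (141 to 191 against 208 to 325 CPM; -0.65 ± 0.169, adjusted p = 0.00376).

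The 7 members not called between the diets in WT had log2 differences from -0.28 (Hspa5) to 0.23 (Trib3). Asns was the third member that differed between the diets in WT, at 13.2 to 24.2 CPM on CD-HFD and 5.06 to 17.0 on CD-LFD (log2 1.03 ± 0.359, adjusted p = 0.0335 by edgeR). That call was lost without any of WT CD-LFD replicates 1, 2, 3 or 6 or WT CD-HFD replicates 1, 2, 3 or 6 (adjusted p 0.0506 to 0.077). With the clock ratio as covariate Atf4 (-0.35, adjusted p = 0.188) and Asns (0.72, adjusted p = 0.241) were no longer called and Atf3 was, and the CD-LFD livers all lay on the other side of the clock gap.

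**Figure D2:**
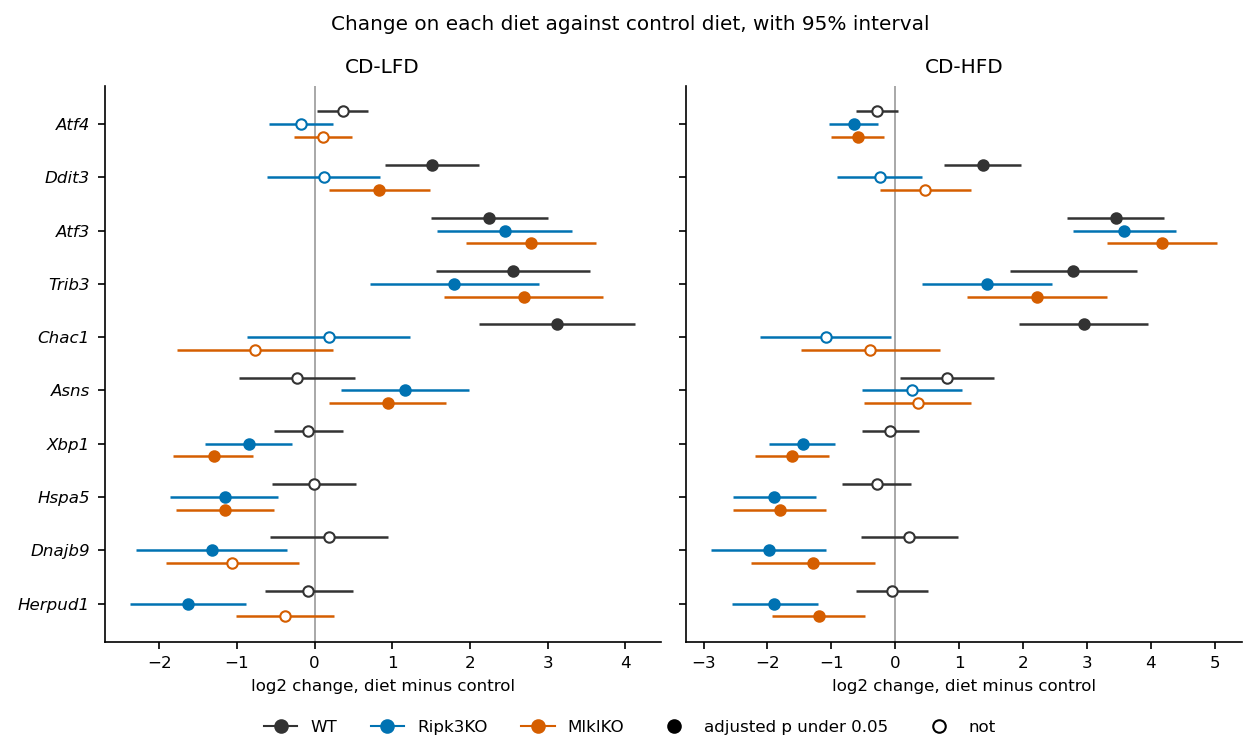
Fitted log2 changes of the 10 genes on CD-LFD (left) and CD-HFD (right) against control diet (x axis), with 95% intervals, in WT, Ripk3KO and MlklKO livers; filled points have an adjusted p under 0.05. Atf3 and Trib3 lie right of 0 in all 3 genotypes, and Xbp1, Hspa5, Dnajb9 and Herpud1 lie left of 0 in the knockouts on CD-HFD.

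In both knockouts CD-HFD raised Atf3 and Trib3 and lowered Atf4, Xbp1 and the 3 genes of ER folding and degradation, Hspa5, Dnajb9 and Herpud1. That made 7 of 10 members called in Ripk3KO (46.3% of all genes, 24.6% higher and 21.7% lower) and 7 of 10 in MlklKO (45.2%, 24.9% higher and 20.3% lower). Atf3 was at 33.6, 32.1, 32.4 and 27.6 CPM in Ripk3KO CD-HFD replicates 1, 2, 3 and 5, against 0.419 to 4.24 in Ripk3KO control livers (log2 3.58 ± 0.41, adjusted p = 2.12e-09 by edgeR). In MlklKO it was at 42.8, 32.4 and 42.1 CPM in replicates 1, 2 and 4, against 0.895 to 6.03 (4.18 ± 0.436, adjusted p = 2.34e-10). Neither genotype's groups overlapped. Trib3 was at 17.0 to 30.5 CPM in Ripk3KO CD-HFD livers, where control replicates 1 and 2 reached 20.4 and 18.2 (log2 1.44 ± 0.519, adjusted p = 0.0209). In MlklKO it was at 45.1, 33.8 and 14.9 CPM, above every control liver (2.22 ± 0.556, adjusted p = 0.0011).

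Hspa5 fell in both knockouts on CD-HFD. In Ripk3KO CD-HFD livers it was at 641, 476, 611 and 486 CPM, below every control liver of that genotype (908 to 4848; log2 -1.89 ± 0.331, adjusted p = 9.92e-06 by edgeR). In MlklKO it was at 1046, 643 and 1060 CPM against 2416 to 4312 (-1.81 ± 0.37, adjusted p = 9.59e-05). WT livers stood at 527 to 1243 CPM on CD-HFD and 431 to 1398 on control diet. Xbp1 followed the same order: 164 to 182 CPM in Ripk3KO CD-HFD against 251 to 656 on control diet (-1.45 ± 0.264, adjusted p = 1.73e-05), and 271, 158 and 208 against 314 to 1080 in MlklKO (-1.61 ± 0.298, adjusted p = 2.35e-05). None of these knockout groups overlapped between the diets, and the calls of Hspa5 and Xbp1 were kept in every alternative. The fit within 1 clock phase leaves out no knockout library. In MlklKO the clock ratios of control and CD-HFD livers did not overlap, so that fit cannot separate diet from clock phase there.

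Dnajb9 was at 26.8, 23.4, 27.9 and 28.8 CPM in Ripk3KO CD-HFD livers, all below the lowest control liver at 30.5 (log2 -1.98 ± 0.459, adjusted p = 0.000459 by edgeR), and at 105, 35.2 and 50.1 in MlklKO, below 118 (-1.29 ± 0.492, adjusted p = 0.0301). The Ripk3KO control livers were uneven, from 30.5 and 36.9 CPM in replicates 1 and 2 to 242 in replicate 4. Herpud1 was at 212 to 302 CPM in Ripk3KO CD-HFD against 526 to 1831 (-1.89 ± 0.344, adjusted p = 1.81e-05), and at 469, 319 and 265 in MlklKO against 496 to 1570 (-1.20 ± 0.372, adjusted p = 0.00754). Atf4, whose mRNA is translated better when eIF2 is phosphorylated, was lower in Ripk3KO (73.7 to 98.3 against 118 to 148 CPM, no overlap, log2 -0.65 ± 0.192, adjusted p = 0.00528) and at 72.6 to 103 against 92.0 to 168 in MlklKO (-0.59 ± 0.212, adjusted p = 0.0206).

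With library size alone as the scale Atf4 was no longer called in Ripk3KO (-0.12) or MlklKO (-0.07), nor were Dnajb9 (-0.78) and Herpud1 (-0.69) in MlklKO. That scale moved the median log2 change of all genes to 0.486 in Ripk3KO and 0.488 in MlklKO, from -0.05 and -0.04. The MlklKO calls of Atf4 and Dnajb9 were lost without MlklKO control replicate 5 or CD-HFD replicate 2 or 4 (adjusted p 0.0529, 0.0532 and 0.0948 for Atf4, and 0.0503, 0.139 and 0.102 for Dnajb9), and Trib3 in Ripk3KO was lost without control replicate 3 or 5 or CD-HFD replicate 1 or 3 (adjusted p 0.0531 to 0.0578), or without the 2 libraries whose deleted gene went against the label (0.0505).

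CD-LFD raised Atf3, Trib3 and Asns and lowered Xbp1 and Hspa5 in both knockouts, while Atf4 and Chac1 were called in neither. In Ripk3KO 7 members were called (24.1% of all genes, 14.0% higher and 10.1% lower): Atf3 (12.3, 7.38 and 22.0 CPM; log2 2.45 ± 0.443, adjusted p = 8.27e-05 by edgeR), Trib3 (24.0, 35.6 and 33.4 CPM; 1.80 ± 0.554, adjusted p = 0.0155) and Asns (27.9, 36.0 and 23.3 CPM; 1.16 ± 0.422, adjusted p = 0.0399) rose. Herpud1 (293, 409 and 242 CPM; -1.63 ± 0.381, adjusted p = 0.00167), Hspa5 (1124, 863 and 752 CPM; -1.16), Dnajb9 (51.4, 42.6 and 33.2 CPM; -1.32) and Xbp1 (280, 246 and 260 CPM; -0.85) fell. The last 3 had adjusted p-values of 0.0149, 0.0473 and 0.0261 by edgeR and overlapped the control livers. Only 3 mice made up this group, and the count of members called was 4, 3 and 2 without replicates 1, 2 and 3 of it, and 4 without Ripk3KO control replicate 4. It was also 4 with library size alone and with only the compared groups, where Xbp1 (-0.54 and -0.80), Hspa5 (-0.85 and -1.12) and Dnajb9 (-1.01 and -1.28) were not called. Herpud1 and Atf3 were kept in each of these fits. Among the other control livers, the call of Xbp1 was lost without replicate 5 (adjusted p = 0.0608), that of Dnajb9 without replicate 3 or 6 (0.0732 and 0.0707) and that of Asns without replicate 1, 2 or 3 (0.0597, 0.0786 and 0.063).

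In MlklKO livers CD-LFD changed 6 members (37.9% of all genes). Atf3 was at 12.7, 16.4, 8.02 and 22.3 CPM (log2 2.78 ± 0.427, adjusted p = 4.24e-06 by edgeR) and Trib3 at 65.7, 42.6, 51.3 and 12.5 (2.69 ± 0.522, adjusted p = 0.00012), the last of which lay within the control range. Xbp1 fell to 256, 259, 264 and 273 CPM, below every control liver (-1.30 ± 0.262, adjusted p = 0.000196), and Hspa5 to 1666, 1632, 1362 and 1138 (-1.15 ± 0.32, adjusted p = 0.00485). Ddit3 (18.9 to 26.2 against 9.48 to 17.3 CPM; 0.83, adjusted p = 0.0438) and Asns (26.2 to 38.1 against 3.94 to 30.0 CPM; 0.94, adjusted p = 0.049) were higher, with calls that did not hold when single libraries were left out. For Ddit3 these were control replicates 1, 2, 4 and 6 and CD-LFD replicates 1, 2 and 4 (adjusted p up to 0.116), and for Asns control replicates 1, 4, 5 and 6 and CD-LFD replicates 1, 2 and 3 (up to 0.118). Asns was also lost with the clock covariate (0.75, adjusted p = 0.129). Herpud1 (549 to 703 CPM) and Dnajb9 (59.0 to 91.9 CPM) did not pass.

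Between CD-HFD and CD-LFD the knockouts differed in few members. In MlklKO (23.7% of genes called, 14.6% higher and 9.14% lower) Atf3 was higher on CD-HFD (log2 1.40 ± 0.423, adjusted p = 0.0137 by edgeR) and Atf4 lower (72.6 to 103 against 112 to 178 CPM; -0.70 ± 0.227, adjusted p = 0.0201), both without overlap. The Atf3 call was lost without MlklKO CD-LFD replicate 3 (adjusted p = 0.0532) or CD-HFD replicate 4 (0.0588), and the Atf4 call without CD-LFD replicate 4 (0.0902) or CD-HFD replicate 2 (0.0529) or 4 (0.113). The number of members called in MlklKO was 1 with library size alone and 4 with only the compared groups. In Ripk3KO (8.83%, 5.75% higher and 3.08% lower) edgeR called 0 members, with 3414 of all genes at an unadjusted p under 0.05, and Atf4 was at 73.7 to 98.3 against 111 to 127 CPM and Chac1 at 3.06 to 3.83 against 7.38 to 8.75. Log2 differences of the members not called ran from -0.82 (Herpud1) to 0.38 (Chac1) in MlklKO and from -1.26 (Chac1) to 1.13 (Atf3) in Ripk3KO. Fitted on the Ripk3KO groups alone the count was 6, and without Ripk3KO CD-LFD replicate 3 it was 1.

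On control diet the knockout livers already differed from WT in this pathway. In MlklKO control livers Hspa5 stood at 2416, 3110 and 4312 CPM (lowest, median, highest) against 431, 1046 and 1398 in WT, without overlap (log2 1.64 ± 0.283, adjusted p = 4.06e-05 by edgeR). Xbp1 was at 314, 603 and 1080 CPM against 131, 231 and 281, also without overlap (1.63 ± 0.231, adjusted p = 2.02e-06). Dnajb9 was at 118, 155 and 201 CPM against 14.4, 45.5 and 97.5 (1.57 ± 0.391, adjusted p = 0.00256). Chac1 was at 5.22, 6.47 and 10.6 CPM against 0, 1.61 and 3.58 (1.92 ± 0.533, adjusted p = 0.00653), and Herpud1 at 496, 697 and 1570 against 137, 308 and 703 (1.08 ± 0.29, adjusted p = 0.00496). Atf4 was lower, at 92.0, 125 and 168 CPM against 117, 170 and 308 (-0.62 ± 0.17, adjusted p = 0.00562). With these 6 of 10 members called, the background was 27.1% (13.0% higher, 14.1% lower).

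Ripk3KO control livers showed 5 of these differences in the same direction, where 4.47% of all genes were called. With only the compared groups 0 of the 5 were called (adjusted p 0.0644 to 0.339), and with the clock covariate only Xbp1 and Chac1 were. Xbp1 was at 251, 537 and 656 CPM (log2 1.18 ± 0.228, adjusted p = 0.00118 by edgeR) and Herpud1 at 526, 785 and 1831 (1.36 ± 0.292, adjusted p = 0.00373). Chac1 was at 4.73, 7.66 and 9.22 CPM, above every WT control liver (1.94 ± 0.536, adjusted p = 0.0262), and Hspa5 at 908, 1640 and 4848 (0.99 ± 0.279, adjusted p = 0.0302). Atf4 was at 118, 130 and 148 CPM (-0.58 ± 0.17, adjusted p = 0.0371). Ripk3KO control replicate 4 was highest of its group for Hspa5, Dnajb9, Herpud1 and Ddit3, and Hspa5 was not called without it (0.52, adjusted p = 0.255).

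These control-diet differences were also fitted by clock phase. Within the 33 libraries below the gap, which leave WT control replicates 2 and 4, MlklKO against WT kept Xbp1 (1.51) and Hspa5 (1.26) and lost Dnajb9 (0.76, adjusted p = 0.324), Herpud1 (0.40, adjusted p = 0.519) and Atf4, whose change turned to 0.02. The clock ratios of those 2 WT livers (-5.79 and -7.88) lay outside the MlklKO control livers (-4.96 to -3.67), so this fit does not match their phase. In Ripk3KO against WT Xbp1 (1.04, adjusted p = 0.0983), Hspa5 (0.59, adjusted p = 0.506) and Herpud1 (0.65, adjusted p = 0.442) were lost and Atf4 was at 0.04. Chac1 passed the test in both, but its 2 WT livers in that fit had 3 and 0 counts, at or under the counting limit, so no fold is given. With the clock covariate Atf4 was also lost in MlklKO against WT (-0.36, adjusted p = 0.125). Atf4 in WT control livers was 117 and 141 CPM in the 2 below the gap and 168 to 308 in the 4 above. In Ripk3KO against WT the calls of Atf4, Hspa5 and Chac1 were also lost without WT control replicate 5 (adjusted p 0.141, 0.0693 and 0.0628), those of Atf4 and Hspa5 without WT control replicate 6 (0.187 and 0.0988) or Ripk3KO control replicate 3 (0.0763 and 0.0548), 4 (0.0832 and 0.255) or 6 (0.0825 and 0.0577), that of Atf4 without Ripk3KO control replicate 2 (0.052) and that of Chac1 without replicate 5 (0.0566).

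**Figure D3:**
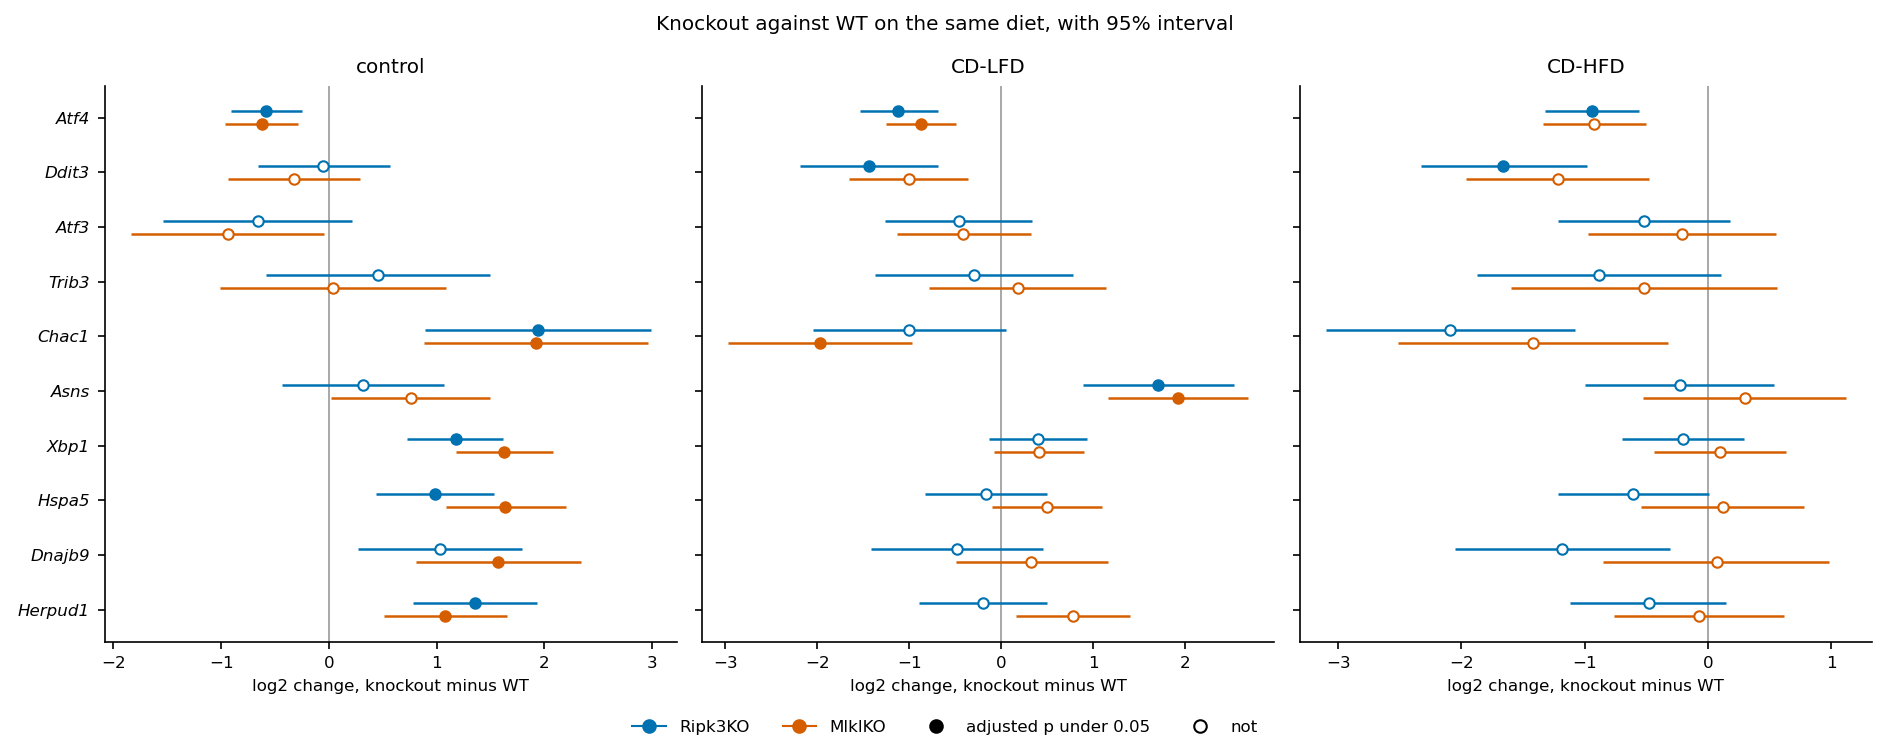
Fitted log2 differences of the 10 genes between each knockout and WT on the same diet (x axis, knockout minus WT, with 95% intervals; filled points have an adjusted p under 0.05). On control diet Xbp1, Hspa5, Herpud1 and Chac1 lie right of 0 in both knockouts; on CD-HFD the filled points are Atf4 and Ddit3 in Ripk3KO.

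On CD-LFD Atf4 was lower and Asns higher in both knockouts than in WT. Atf4 was at 127, 112 and 111 CPM in Ripk3KO and 139, 126, 112 and 178 in MlklKO, all below the lowest of the WT livers at 208 (log2 -1.12 ± 0.217, adjusted p = 0.00282, and -0.87 ± 0.193, adjusted p = 0.00708, by edgeR). Asns was at 23.3 to 36.0 CPM in Ripk3KO and 26.2 to 38.1 in MlklKO, above all WT livers (5.06 to 17.0; log2 1.71 ± 0.419, adjusted p = 0.0273, and 1.92 ± 0.388, adjusted p = 0.00246). Ddit3 was lower in Ripk3KO (13.3 to 18.2 against 22.5 to 71.0 CPM; -1.44 ± 0.381, adjusted p = 0.0474), and Chac1 in MlklKO (2.23 to 5.77 against 4.51 to 26.8 CPM; -1.97 ± 0.51, adjusted p = 0.0251). Each comparison called 3 members, where 1.10% of all genes were called for Ripk3KO (0.794% higher, 0.310% lower) and 2.56% for MlklKO (1.64% higher, 0.929% lower). With the clock ratio as a covariate 0 members were called in either, and no fit within 1 clock phase exists because all WT CD-LFD livers lie above the gap.

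Single libraries also mattered on CD-LFD. Against Ripk3KO the call of Ddit3 was lost without WT replicate 1, 2, 5 or 6 or any of the 3 Ripk3KO livers (adjusted p 0.0624 to 0.302), that of Asns without WT replicate 1, 2 or 6 or any Ripk3KO liver (0.0534 to 0.233), and that of Atf4 without Ripk3KO replicate 2 (0.0533). Against MlklKO the call of Chac1 was lost without WT replicate 1 or 5 or MlklKO replicate 1, 2 or 4 (0.0522 to 0.106), while Atf4 and Asns were kept without any 1 library.

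On CD-HFD Xbp1, Hspa5, Dnajb9 and Herpud1 did not pass the test between either knockout and WT, and the members called were Atf4 and Ddit3 in Ripk3KO. Atf4 was at 87.6, 98.3, 73.7 and 77.4 CPM, below all WT CD-HFD livers (141 to 191; log2 -0.94 ± 0.194, adjusted p = 0.0144 by edgeR). Ddit3 was at 14.3, 11.0, 15.6 and 11.1 CPM, below 26.0 to 64.3 (-1.66 ± 0.343, adjusted p = 0.0144). These were 2 of 10 members where 0.377% of all genes were called (0.209% higher, 0.168% lower), and within 1 clock phase the values were -0.95 and -1.63, both called. Chac1 was at 3.06 to 3.83 CPM against 3.46 to 38.3 and did not pass. Without Ripk3KO CD-HFD replicate 5 neither was called (adjusted p = 0.0957 and 0.101). Atf4 was also lost without Ripk3KO CD-HFD replicate 3 (0.0953), and Ddit3 without replicate 2 (0.0873) or WT CD-HFD replicate 6 (0.0506).

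MlklKO against WT on CD-HFD gave 0 members, as edgeR called 0 genes in all (0%), with 1246 genes at an unadjusted p under 0.05. DESeq2 also called 0 genes. The levels of Atf4 (103, 79.9 and 72.6 CPM) and Ddit3 (22.8, 14.7 and 15.3 CPM) were below all WT CD-HFD livers. How many of all genes separate in this way was not counted, so this is a description of levels only. The highest of each was replicate 1, the library whose Mlkl level went against its label, and this library was the highest of its group for 8 of the 10 members.

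**Figure D4:**
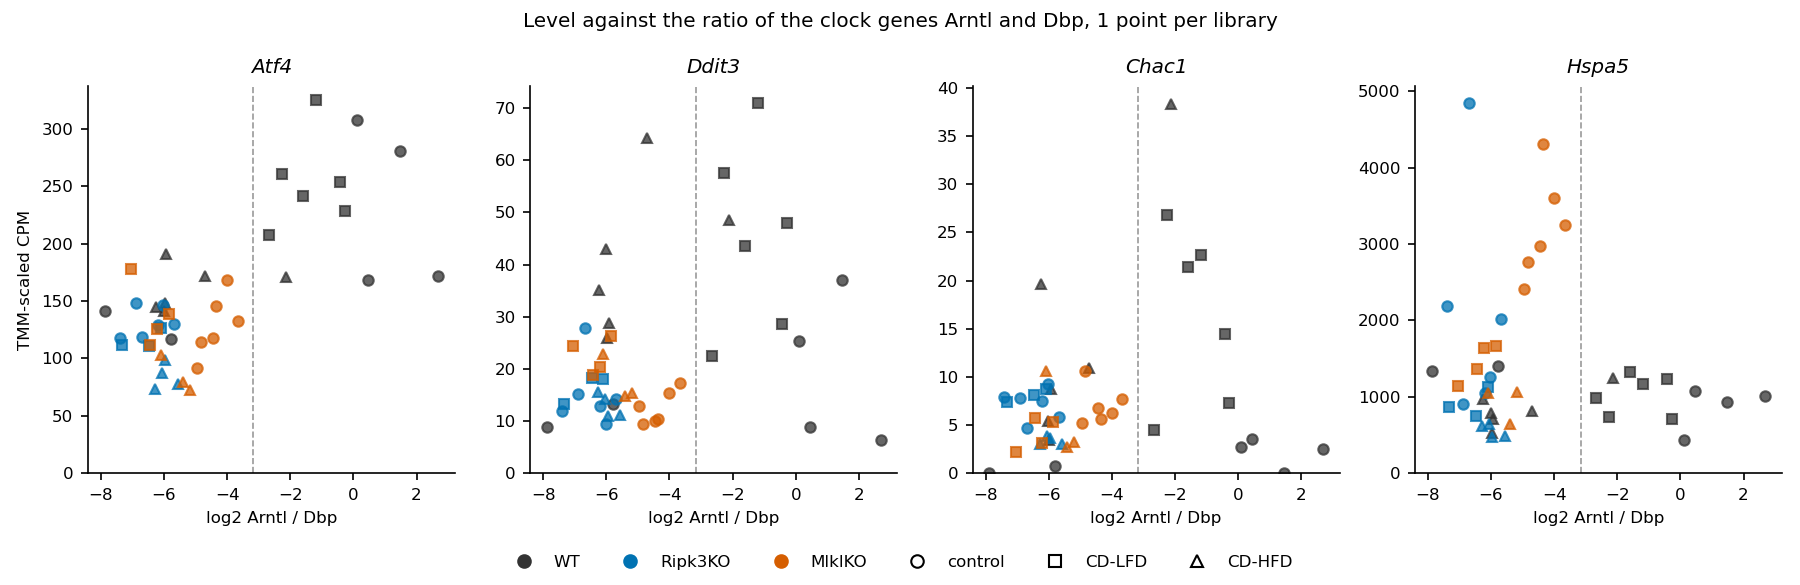
Levels of Atf4, Ddit3, Chac1 and Hspa5 (y axis, TMM-scaled CPM) against the log2 ratio of Arntl to Dbp (x axis) in all 44 livers, coloured by genotype and shaped by diet; the dashed line is the gap between the 33 and the 11 libraries. All points right of it are WT, and Chac1 is at most 3.58 CPM in WT control livers on either side.

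Whether a diet acted differently by genotype was tested as an interaction, in which the diet change of the knockout is set against that of WT. Chac1 gave the largest values among the members: its log2 diet change was lower than in WT for Ripk3KO on CD-HFD (log2 -4.04 ± 0.741, adjusted p = 0.00609 by edgeR), for MlklKO on CD-HFD (-3.34 ± 0.777, adjusted p = 0.0108) and for MlklKO on CD-LFD (-3.89 ± 0.737, adjusted p = 0.00087). Chac1 degrades cytosolic glutathione. Its levels were 1.58 ± 1.53, 16.2 ± 8.96 and 14.4 ± 13.0 CPM in WT on control diet, CD-LFD and CD-HFD (SD, n = 6), 7.18 ± 1.61, 8.09 ± 0.688 and 3.39 ± 0.39 in Ripk3KO, and 7.01 ± 1.98, 4.10 ± 1.69 and 5.52 ± 4.42 in MlklKO. The interactions of Chac1 with Ripk3KO on CD-HFD and with MlklKO on CD-LFD were called in every alternative that could be run, of which the fit within 1 clock phase, possible for CD-HFD alone, rests on 2 WT control livers with 3 and 0 counts. The one of MlklKO with CD-HFD was lost without MlklKO CD-HFD replicate 4 (-3.09, adjusted p = 0.0525).

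Xbp1 also had a lower diet change in the knockouts (Ripk3KO, CD-HFD; log2 -1.38 ± 0.343, adjusted p = 0.0489 by edgeR), (MlklKO, CD-HFD; -1.54 ± 0.366, adjusted p = 0.0128) and (MlklKO, CD-LFD; -1.23 ± 0.342, adjusted p = 0.0194). Herpud1 did so in Ripk3KO on CD-HFD (-1.84 ± 0.44, adjusted p = 0.0368) and Hspa5 in MlklKO on CD-HFD (-1.52 ± 0.448, adjusted p = 0.043). The backgrounds were 0.478% of genes for Ripk3KO with CD-HFD, 4.12% for MlklKO with CD-HFD and 8.45% for MlklKO with CD-LFD. For Ripk3KO with CD-LFD edgeR called 0 members, where 0.0269% of genes (4) were called, 0.00673% higher and 0.0202% lower, with 1230 at an unadjusted p below 0.05, and DESeq2 called 1 member.

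Several of these calls lie near the threshold, and the number of members called for Ripk3KO with CD-HFD was 5 without WT control replicate 2 or 4 or Ripk3KO control replicate 1 or 2, and 1 in 10 other fits that left out 1 library. Xbp1 with Ripk3KO was lost in 17 of 22 fits that left out 1 library, and kept without WT control replicate 1, 2 or 4 or Ripk3KO control replicate 1 or 2. Herpud1 with Ripk3KO was lost in 12 of 22, without WT control replicate 1, 3 or 5, WT CD-HFD replicate 1, 2 or 3, Ripk3KO control replicate 3 or 4 or any Ripk3KO CD-HFD liver (adjusted p up to 0.103). Hspa5 with MlklKO was lost in 13 of 21, without WT control replicate 1, 3, 5 or 6, WT CD-HFD replicate 2, 3 or 6, MlklKO control replicate 1, 3 or 5 or any MlklKO CD-HFD liver (up to 0.131). Xbp1 was lost without MlklKO control replicate 1 for CD-LFD (0.0547) and without MlklKO CD-HFD replicate 2 for CD-HFD (0.0519). Within 1 clock phase the values for CD-HFD were -1.14 for Xbp1 and -1.17 for Herpud1 with Ripk3KO and -1.34 for Xbp1 and -1.05 for Hspa5 with MlklKO, none called. With the clock covariate Xbp1 (adjusted p = 0.0695) and Herpud1 (0.143) with Ripk3KO and Hspa5 with MlklKO (0.053) were not called.

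Ordered by group mean, the members fell into few distinct steps, where 2 neighbouring groups count as apart if their means differ by at least the larger SD. Of the 8 neighbouring pairs among the 9 groups, all 8 lay within that SD for Asns and 7 for Atf4, Xbp1, Trib3, Chac1, Dnajb9 and Herpud1. For Atf4 the step lay between the 2 knockout CD-HFD groups (84.2 ± 11.0 CPM, n = 4, and 85.1 ± 15.7, n = 3) and the other groups, of which WT CD-LFD had the highest mean (253 ± 40.0, n = 6). Atf3 had 3 steps, and its 3 lowest means were the 3 control groups (2.30 to 4.24 CPM) and its 3 highest the 3 CD-HFD groups (31.4 to 45.1 CPM). For Hspa5 the lowest mean was Ripk3KO CD-HFD (553 ± 84.9 CPM, n = 4) and the highest MlklKO control (3219 ± 671, n = 6). For Xbp1 the step separated both knockout control groups (473 ± 164 and 649 ± 254 CPM, n = 6 each) from the other 7. Chac1 had its step above WT control, the lowest group.

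Among livers of the same group, the members most alike in their variation were Hspa5, Dnajb9, Herpud1 and Xbp1. Over the deviations of log2 CPM from the group mean in 44 libraries, Pearson's r was 0.84 between Hspa5 and Dnajb9, 0.75 between Dnajb9 and Herpud1, 0.65 between Xbp1 and Hspa5, 0.64 between Xbp1 and Dnajb9 and 0.60 between Hspa5 and Herpud1, but 0.11 between Xbp1 and Herpud1. Atf4 had r of 0.50 with Ddit3, 0.43 with Atf3, -0.31 with Trib3, 0.17 with Chac1 and -0.14 with Asns. Across all genes tested, the nearest to Hspa5 were Dnajb11 (r 0.94), Pdia4 (0.93) and Hyou1 (0.93), all ER chaperones or folding enzymes. Dnajb9 lay nearest to Uap1 (0.93) and Edem1 (0.90), and Xbp1 to Il13ra1 (0.88) and Steap4 (0.87). Trib3 lay nearest to the clock gene Nr1d1 (0.78), then Depp1 (0.67) and the stress gene Sesn2 (0.67), and Atf4 to Alkbh1 (0.85) and Ppan (0.82). These are descriptions, and the libraries share depth, clock phase and tissue composition.

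The wider pathway was read from 9 lists with 110 genes, of which 109 were tested. In WT livers CD-HFD gave 26 higher and 26 lower among the 109, shares near those of all genes (23.5% and 24.1%). Among 10 stress effectors regulated by ATF4 8 rose and 0 fell (median log2 1.80, against -0.07 over all genes), and among 16 genes of amino acid synthesis and transport 9 rose and 2 fell (median 1.30). Fgf21, a hormone of nutrient stress, went from 1.28 CPM to 49.9 ± 22.8 (log2 5.27 ± 0.512, adjusted p = 3.43e-11 by edgeR, n = 6), and Nupr1, a stress-induced chromatin factor, from 1.93 to 34.7 ± 28.6 (4.34 ± 0.521, adjusted p = 5.48e-09). Nupr1 belongs to the 6 stress transcription factors, of which 3 rose and 0 fell (median 0.38), Jdp2 among them (1.47 ± 0.342, adjusted p = 0.000441). Slc7a11, the cystine importer, had 0 counts in all 6 WT control livers and was at least 2.88-fold higher on CD-HFD, against 3 counts in the smallest control library. Psat1, of serine synthesis, went from 0.374 ± 0.244 to 5.52 ± 2.35 CPM and Stc2, a secreted glycoprotein, from 0.322 ± 0.347 to 3.58 ± 0.863, both called, and no fold is given because every control library had at most 3 counts of either.

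The remaining lists had medians below 0 in WT on CD-HFD, and their counts of called genes stand beside 47.7% of all genes called (23.5% higher, 24.1% lower). Of 12 tRNA synthetases, which ATF4 can also raise, 6 fell and 1 rose, led by Tars (159 to 56.1 CPM, log2 -1.51 ± 0.218, adjusted p = 2.81e-07 by edgeR). Of 19 ER chaperones and folding enzymes 4 fell and 1 rose, the latter Fkbp11 (0.91, adjusted p = 0.00706), which was not called without WT CD-HFD replicate 6 (0.63, adjusted p = 0.0566). Of 16 genes of ER-associated degradation 7 fell and 1 rose, with Edem1 at -0.79 (adjusted p = 0.00398). Of the 7 ER stress sensors Eif2ak3, which encodes PERK, rose (0.84 ± 0.247, adjusted p = 0.00456) and 3 fell, among them Creb3l3, a liver-specific relative of ATF6 (-0.64 ± 0.128, adjusted p = 7.3e-05). Eif2ak3 was at 0.58 (adjusted p = 0.0635) with the clock covariate and 0.13 (adjusted p = 0.749) within 1 clock phase. Of 17 genes of translocation and secretion 1 rose and 2 fell, Sec63 (-0.67, adjusted p = 5.04e-05) and Sec62 (-0.41, adjusted p = 0.0418), the second of which was not called without WT control replicate 5 or 6 (-0.20 and -0.30) or WT CD-HFD replicate 1, 2 or 3 (adjusted p 0.0539, 0.0987 and 0.107) and in none of the 10 other alternatives (0.01 within 1 clock phase). With library size alone as the scale, under which the median of all genes moved from -0.07 to 0.427, none of the falls named here other than those of Tars and Mars was called.

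In the knockouts on CD-HFD these ER lists were lower than on control diet. Of 19 ER chaperones 15 fell in Ripk3KO (median log2 -0.85) and 14 in MlklKO (-1.01), and 0 rose in either. Genes of ER-associated degradation fell in 11 of 16 in both genotypes. Over all 9 lists the counts were 16 higher and 51 lower in Ripk3KO and 15 and 52 in MlklKO, against 24.6% higher and 21.7% lower, and 24.9% and 20.3%, of all genes. The ATF4-regulated stress effectors moved up in both, 6 of 10 in Ripk3KO and 5 of 10 in MlklKO, with 0 lower. Slc7a11, with at most 3 counts in any control library, went from 0.0272 to 4.13 ± 0.603 CPM in Ripk3KO and from 0.0832 to 6.32 ± 3.86 in MlklKO, and Nupr1 rose by 3.98 ± 0.546 (adjusted p = 1.08e-07 by edgeR) and 3.64 ± 0.533 (adjusted p = 4.16e-07).

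On control diet many genes of the ER lists were higher in MlklKO than in WT. Of the 109 genes tested 51 were higher and 5 lower, against 13.0% and 14.1% of all genes, including 15 of 19 ER chaperones higher (median log2 0.75) and 9 of 17 genes of translocation and secretion. Creld2, an ER protein released under stress, was at 357 ± 118 CPM (SD, n = 6) against 78.3 in WT (2.20 ± 0.401, adjusted p = 8.38e-05 by edgeR; 1.71, adjusted p = 0.0599, within 1 clock phase), and Syvn1, the ubiquitin ligase of ER-associated degradation, at 627 ± 245 against 168 (1.90 ± 0.325, adjusted p = 3.73e-05). In Ripk3KO 10 of the 109 were higher and 0 lower, against 2.25% and 2.23% of all genes, and 7 of the 10 were ER chaperones. With the clock covariate or within 1 clock phase 0 were called. The log2 differences in these 2 fits were 1.33 and 1.07 for Creld2 (1.58, adjusted p = 0.0135 by edgeR, in all libraries), 1.25 and 1.12 for Sdf2l1 (1.07, adjusted p = 0.0284), 0.96 and 0.75 for Pdia4 (0.94, adjusted p = 0.0174) and 0.91 and 0.94 for the transcription factor Cebpb (0.94, adjusted p = 0.00187). Without Ripk3KO control replicate 4 the 3 chaperones were at 0.73 (adjusted p = 0.225), 0.47 (0.314) and 0.50 (0.171). Sdf2l1 was also lost without WT control replicate 6 (0.0691) or Ripk3KO control replicate 6 (0.0506), and Pdia4 without WT control replicate 6 (0.0571). With only the compared groups Creld2 (0.271), Sdf2l1 (0.284), Pdia4 (0.289) and Cebpb (0.092) were not called. Without WT control replicates 5 and 6 together Sdf2l1 (0.0914) and Pdia4 (0.115) were lost. Sdf2l1 was lost with library size alone (0.0561) and the replicate block (0.0579) as well. The diet change of Syvn1 was lower than in WT in Ripk3KO on CD-HFD (-2.58 ± 0.489, adjusted p = 0.00674) and in MlklKO (-2.46 ± 0.523, adjusted p = 0.00546), the first of which was -2.64 within 1 clock phase (adjusted p = 0.0538). Between knockout and WT on CD-LFD, 3 of the 109 wider genes were called for Ripk3KO (1 of them lower) and 4 for MlklKO (1 lower). Of all genes 1.10% and 2.56% were called in these comparisons. On CD-HFD 3 were called for Ripk3KO, all lower, and 0 for MlklKO, where 0.377% and 0% of all genes were called. Fgf21 was lower than in WT in Ripk3KO on CD-LFD (-3.01 ± 0.515, adjusted p = 0.000732), in MlklKO on CD-LFD (-2.86 ± 0.449, adjusted p = 0.000119) and in Ripk3KO on CD-HFD (-2.36 ± 0.442, adjusted p = 0.0058). The first 2 were not called with the clock covariate (-2.80 and -2.66), and the third not without Ripk3KO CD-HFD replicate 5 (-2.25, adjusted p = 0.0516). On CD-LFD Eif4ebp1, which encodes an inhibitor of cap-dependent translation, was higher in Ripk3KO (0.79, adjusted p = 0.00296 by edgeR) and MlklKO (0.60, adjusted p = 0.0126), as was Creb3l3 (0.59, adjusted p = 0.0382, and 0.54, adjusted p = 0.0263), and Pdia5 was higher in MlklKO (0.71, adjusted p = 0.00312). With the clock covariate none of these was called, at 0.58 and 0.41 for Eif4ebp1, 0.48 and 0.44 for Creb3l3 and 0.51 for Pdia5. Library size alone and no filter each ended the calls of Creb3l3 in both knockouts (adjusted p 0.153 to 0.246) and of Eif4ebp1 in MlklKO (0.0865 and 0.0698). In Ripk3KO Creb3l3 was also lost with only the compared groups (0.0962) or without the 2 libraries against their labels (0.0612). Eif4ebp1 was also lost without CD-LFD replicate 2 of the knockout in question, and Creb3l3 without WT CD-LFD replicate 1, 2, 3, 5 or 6 or Ripk3KO replicate 1 or 2 (Ripk3KO), and without WT replicate 1 or 5 or MlklKO replicate 1, 2 or 3 (MlklKO). On CD-HFD Syvn1 (-1.55, adjusted p = 0.0449) and Dnajb2 (-0.59, adjusted p = 0.0361) were lower in Ripk3KO, and neither was called without any 1 of the 4 Ripk3KO CD-HFD livers (adjusted p 0.0564 to 0.221) or without WT CD-HFD replicate 1, 2, 3 or 6, nor Syvn1 without WT replicate 5. Syvn1 had nearly the same difference with the clock covariate (-1.53, adjusted p = 0.0561), within 1 clock phase (-1.54, 0.061) and with the replicate block (-1.51, 0.0788) but was not called, and neither was Dnajb2 with no filter on low counts (-0.61, 0.0975).

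**Figure D5:**
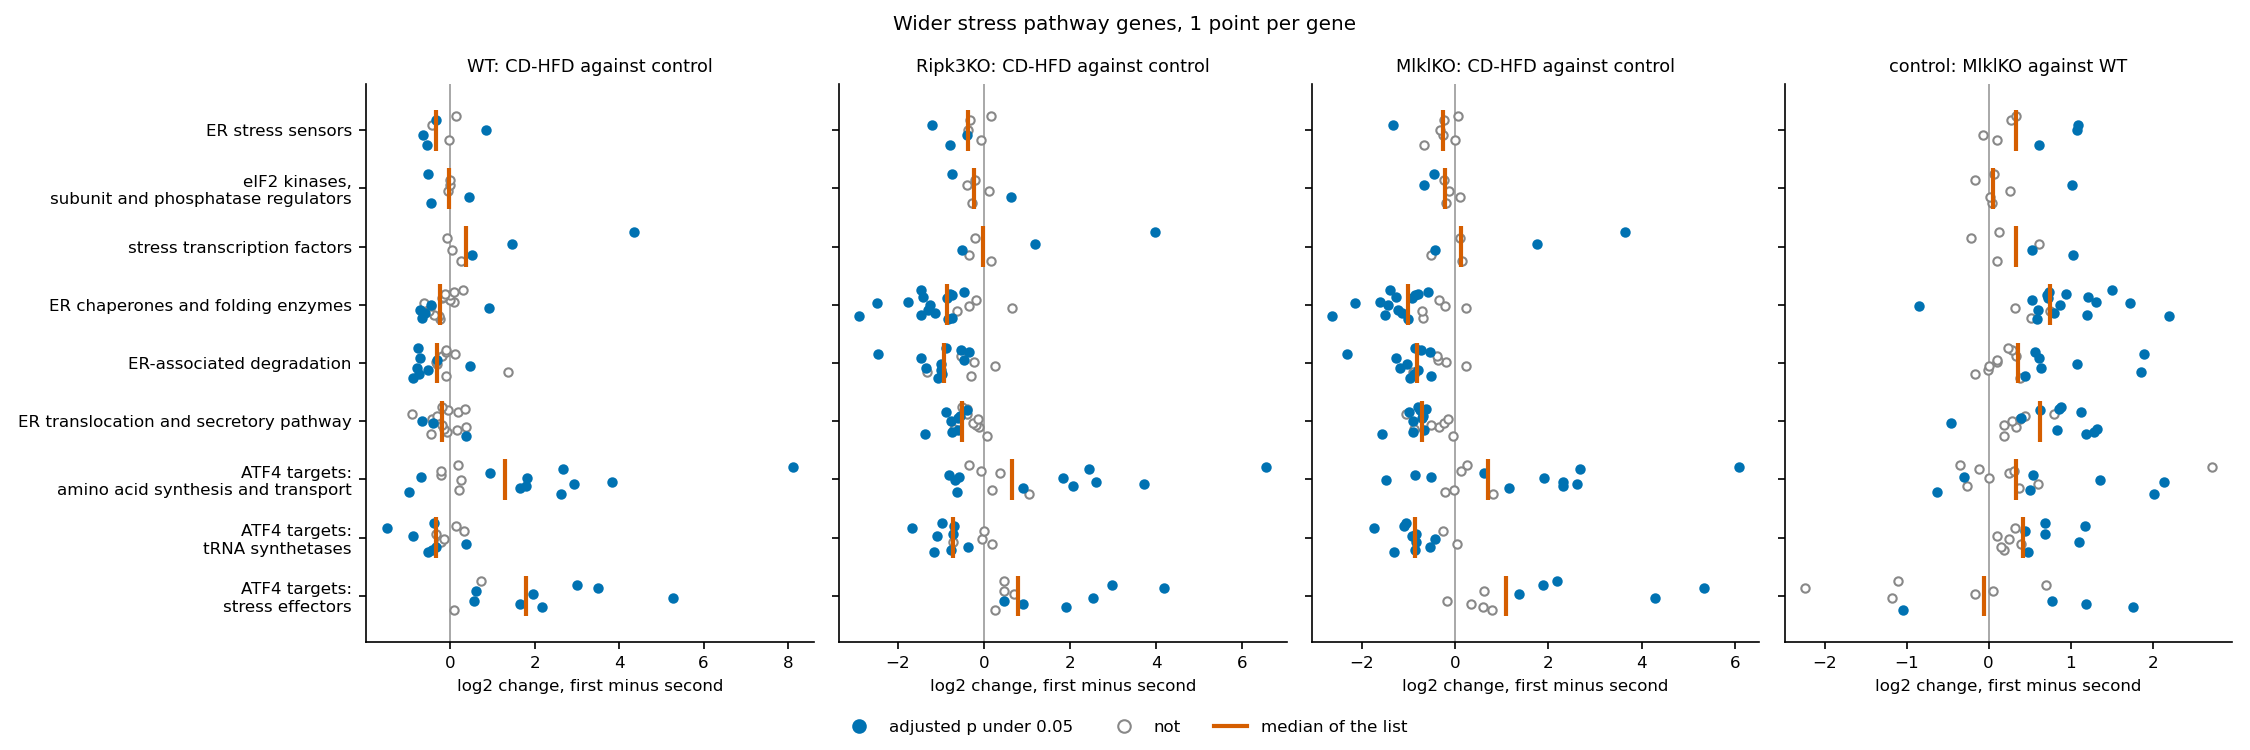
Fitted log2 changes (x axis) of the 109 tested genes of 9 stress pathway lists (rows, 1 point per gene) in 4 comparisons; filled points have an adjusted p under 0.05 and the bar is the median of the list. Most ER chaperones lie left of 0 in the knockouts on CD-HFD (medians -0.85 and -1.01) and right of 0 in MlklKO on control diet (0.75); the fitted values of Slc7a11, far right, depend on the prior count because its control counts are near 0.

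Markers of liver cell types moved with both diets as well. In WT on CD-HFD the summed level of 10 macrophage and Kupffer cell markers went from 225 to 321 CPM on control diet to 951 to 2187, with 6 called higher and 3 lower. The 10 stellate cell and fibroblast markers went from 225 to 271 up to 846 to 1629 CPM (9 higher), the 6 cholangiocyte markers from 44.8 to 83.1 up to 678 to 1127 (6 higher) and the 10 T and NK cell markers from 3.66 to 10.8 up to 24.6 to 54.6 (9 higher). No marker of these 4 lists was at 0 in every liver of either group. Endothelial markers fell in 7 of 10. In the knockouts on CD-HFD 9 of 10 hepatocyte markers were lower in Ripk3KO (sum from 111833 to 154837 down to 64673 to 93187 CPM) and 6 of 10 in MlklKO (from 108398 to 126909 down to 71829 to 94979), beside the falls of Hspa5 and Xbp1. In each knockout 9 of 10 stellate cell, 9 of 10 T and NK cell and 6 of 6 cholangiocyte markers were higher, and endothelial markers were lower in 5 of 10 for Ripk3KO and 1 of 10 for MlklKO. The macrophage sum went from 84.0 to 528 up to 1260 to 1775 CPM in Ripk3KO and from 142 to 337 up to 1302 to 2021 in MlklKO. On CD-LFD hepatocyte markers were lower in 5 of 10 for WT, 2 for Ripk3KO and 3 for MlklKO (1 higher). Stellate cell markers were higher in 8, 7 and 5 of 10, T and NK cell markers in 8 (1 lower), 6 and 7 of 10, macrophage markers in 4, 3 and 5 of 10 (2 lower in each) and cholangiocyte markers in 4, 6 and 0 of 6, in the same order of genotypes. Endothelial markers were lower in 6, 4 (1 higher) and 6 of 10. In bulk liver fewer cells of a type and less RNA per cell cannot be told apart, and the part of these markers in the changes of Atf3, Hspa5 and the other members was not tested. On control diet, between MlklKO and WT, 0 of 10 macrophage and 0 of 10 T and NK cell markers were called, 1 of 10 stellate cell and 1 of 10 hepatocyte markers were higher, 2 of 6 cholangiocyte markers were higher, 2 of 10 endothelial markers were higher and 1 lower, and 3 of 5 tested B and plasma cell markers were lower. Their part in the differences of Xbp1, Hspa5 and the other members was not tested.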

How the data were processed

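Total RNA of 44 mouse livers was sequenced with a strand-specific kit, per the labels' protocols. The authors deposited raw read counts per gene. FastQC, STAR, HTSeq, edgeR and limma and the build GRCm39 are listed in the submitters' processing notes, and whether counting used strand is not given in the sources used here. Of 35249 genes, 34373 were paired with a symbol. Genes kept by filterByExpr with a minimum count of 10 numbered 14862 and held 99.85% of the counts. The counts were fitted with edgeR 4.0.16 (R 4.3.3, limma 3.58.1): TMM scaling, 1 mean per group over all 44 libraries, quasi-likelihood F test, Benjamini-Hochberg adjustment over all genes within each of the comparisons, threshold 0.05. The fit was tested on simulated data. Standard errors are the log2 change over the root of F. Levels are TMM-scaled CPM.

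The members, the wider lists and the tests were chosen with earlier results of these data known. All members were tested in every comparison. Of the wider lists, the called genes with the largest changes are named, 2 per list for WT on CD-HFD (1 such gene is not reported here) and 4 elsewhere, and for each member the 3 genes with the highest Pearson r of deviations from group means. Alternatives were RLE factors, library size alone, no filter, DESeq2 1.42.0, only the compared groups, the replicate block, the clock ratio as covariate, one clock phase, leaving out WT control replicates 5 and 6 together, the 2 libraries against their labels, and each library in turn.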

Additional observations from a re-analysis of the deposited data

Results flagged for a closer look

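In 6 of 70 combinations of a member and a group of at least 4 livers, 1 liver stood apart from the others by Dixon's 95% criterion, which chance meets in about 1 of 20. These were Atf3 in MlklKO control replicate 1 (6.03 CPM), Ddit3 and Hspa5 in Ripk3KO control replicate 4 (27.9 and 4848 CPM), Xbp1 in WT CD-HFD replicate 3 (289 CPM), Trib3 in WT CD-HFD replicate 6 (119 CPM) and Herpud1 in MlklKO control replicate 6 (1570 CPM). Each was the highest of its group.

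The diet change differed between knockout and WT by the interaction test of edgeR for 4 members. On the log2 scale the difference was -1.38 for Xbp1, -4.04 for Chac1 and -1.84 for Herpud1 with Ripk3KO and CD-HFD. With MlklKO and CD-HFD it was -1.54 for Xbp1, -3.34 for Chac1 and -1.52 for Hspa5, and with MlklKO and CD-LFD -1.23 for Xbp1 and -3.89 for Chac1.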

How the results depend on the processing

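Of 655 fits of called members under alternatives other than leaving out 1 library, 585 kept direction and call, 68 lost the call and 2 reversed. Of 784 that left out 1 library, 644 kept both and 140 lost the call. For the named genes of the wider lists the numbers were 691 of 763 and 859 of 951, with 4 reversed. Reversed were Atf4 on control diet within one clock phase (0.04 for Ripk3KO, 0.02 for MlklKO) and, in WT on CD-HFD, Eif2ak1 with library size only (0.03) and Sec62 with library size only (0.07), within one clock phase (0.01) and without WT control replicates 5 and 6 (0.02). The cause was not tested.

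The number of members called changed by more than 1.5 times as follows. With the clock covariate it was 1 for WT CD-HFD against CD-LFD, 2 for Ripk3KO against WT on control diet, 0 for either knockout on CD-LFD and 1 for the interaction of Ripk3KO and CD-HFD. Within one clock phase it was 2 for Ripk3KO CD-HFD against CD-LFD, 1 for Ripk3KO and 3 for MlklKO on control diet. With only the compared groups it was 4 for Ripk3KO CD-LFD, 6 for Ripk3KO and 4 for MlklKO CD-HFD against CD-LFD, 0 for Ripk3KO on control diet and 1 for Ripk3KO and CD-HFD. With library size only it was 4 for Ripk3KO CD-LFD and 1 for MlklKO CD-HFD against CD-LFD. Without WT control replicates 5 and 6 it was 2 for Ripk3KO on control diet, 1 for MlklKO on CD-HFD and 1 for the interaction of Ripk3KO and CD-LFD. With no filter it was 1 and 6, and with DESeq2 1 and 5, for the interactions of Ripk3KO with CD-LFD and CD-HFD.

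Leaving out 1 library gave 4 to 6 members for WT CD-HFD, 4 to 5 for WT CD-LFD and 2 to 3 between them. It gave 6 to 7, 2 to 6 and 0 to 1 for the same comparisons in Ripk3KO, and 5 to 7, 4 to 6 and 0 to 2 in MlklKO. On control diet it gave 2 to 6 for Ripk3KO and 6 to 7 for MlklKO, on CD-LFD 0 to 3 and 2 to 3, and on CD-HFD 0 to 3 and 0 to 0. For the interactions it gave 0 to 0 and 1 to 5 with Ripk3KO on CD-LFD and CD-HFD, and 1 to 2 and 1 to 3 with MlklKO.

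The labels do not say whether a shared replicate number pairs samples, and no comparison had every pair's correlation over 0.1. For CD-HFD against control the best match of a library carried its own number in 4 of 6 for WT, 3 of 4 for Ripk3KO and 3 of 3 for MlklKO. For MlklKO CD-LFD against control it did so in 0 of 4. What replicate numbers share was not tested. With the replicate block the count was 1 for Ripk3KO against WT on CD-LFD and moved by less than 1.5 times elsewhere. Library size only changed the split of all genes called to 6813 higher and 1020 lower in WT on CD-HFD, 6870 and 737 in Ripk3KO and 6364 and 727 in MlklKO. The number of all genes called went from 665 to 45 for Ripk3KO against WT on control diet and from 4117 to 1814 for WT CD-LFD with only the compared groups, and from 381 to 18 for MlklKO against WT on CD-LFD with the clock covariate. No fit within one clock phase exists for WT CD-LFD. At 0 to 21 counts, Chac1 in WT control livers is limited by depth.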
